A study of Mus musculus with 6 samples.

Results

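The endothelial genes described here are 37 genes of blood and lymphatic vessel lining, taken by symbol: pan-endothelial surface and junction genes, the SOXF transcription factors, capillary, arterial, venous and adhesion genes, and lymphatic genes. All 37 were found among the 20494 gene clusters of the authors' deposited table, each in a single row, and all 37 had an adjusted p. The study sequenced RNA from whole lungs of untreated 4-month-old male C57BL/6 mice, 3 lincRNA-Cox2 knockout and 3 wild type. LincRNA-Cox2, a long noncoding RNA, lies beside Ptgs2, which encodes inducible cyclooxygenase. The labels give the genotype only, without the design of the allele, whether the mice were littermates, or any batch. The deposited table holds, for each genotype, a mean normalized count, and 1 DESeq2 comparison of knockout over wild type, so the spread between mice is seen only through the standard error of the shrunken log2 change (a fold change estimate pulled towards 0). Values of single mice are not given in it, and all values below come from this table unless stated otherwise.

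Endothelial cells line every vessel of the lung and make up the gas exchange surface together with flat alveolar epithelium. In lung capillaries, aerocytes carry carbonic anhydrase 4 (Car4), the endothelin receptor Ednrb and the peptide apelin (Apln), while general capillary cells carry the apelin receptor Aplnr. VEGF receptors (Kdr, Flt1, Flt4), the angiopoietin receptor Tek with its partner Tie1, ETS and SOXF transcription factors maintain endothelial identity, and the endothelium controls vessel tone through nitric oxide made by Nos3 and the constrictor endothelin (Edn1).

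The sample checks of the series were as follows. The targeted transcript had means of 311 and 0.666 normalized counts in wild type and knockout, and Ptgs2 had 2929 and 298, in the authors' deposited table. Summed means were 3.71e+07 per wild type library and 3.68e+07 per knockout library; since they are scaled, they give no library depth. Surfactant genes, which define lung tissue, were abundant (Sftpc 82187 and 83359). Endothelial markers were abundant as well. The wild type means of the 37 genes ran from 140 for Prox1 to 41603 for Calcrl, and 21 of the 37 were above 90% of all tested clusters.

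Apelin and endothelial nitric oxide synthase fell in the knockout lung, and most other endothelial genes had a knockout mean slightly below the wild type mean. Apln fell 1.30-fold and Nos3 fell 1.25-fold between the group means of the authors' deposited table, and these 2 were the members with an adjusted p under 0.05. That is 2 of 37, or 5.41%, beside 1.09% of all 16902 clusters with an adjusted p in either direction and 0.497% called lower. Among the 13640 clusters whose mean was at least that of the lowest member, 0.579% were called lower. No member was called higher. The list was chosen with earlier results of these data known, so an excess over all clusters can come in part from that choice.

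The knockout mean lay below the wild type mean for 32 of the 37 genes, or 86.5%, beside 50.6% of all tested clusters. The median log2 ratio of means was -0.11 over the 37 genes, with quartiles of -0.18 and -0.04, beside -0.00131 over all tested clusters; 16.9% of all tested clusters were at or below the members' median. Of the 37, 8 (21.6%) had an unadjusted p under 0.05, all with the lower mean in knockout, beside 4.04% of all tested clusters: Apln, Nos3, Sox7, Selp, Robo4, Cldn5, Plvap and Gja5. The differences were small, at most 1.30-fold. The knockout mean lay more than 10% below wild type in 13 of the 37 members, beside 1903 of all 16902 tested clusters. It lay more than 10% above in none, beside 2228 of all tested clusters, and within 5% of wild type in 15, beside 8506. These counts describe the list and carry no test, because the genes share the same cells and mice. The choice of the list with earlier results known bears on these shares as well. In RNA from whole lung, fewer endothelial cells and less RNA per endothelial cell cannot be told apart.

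**Figure D1:**
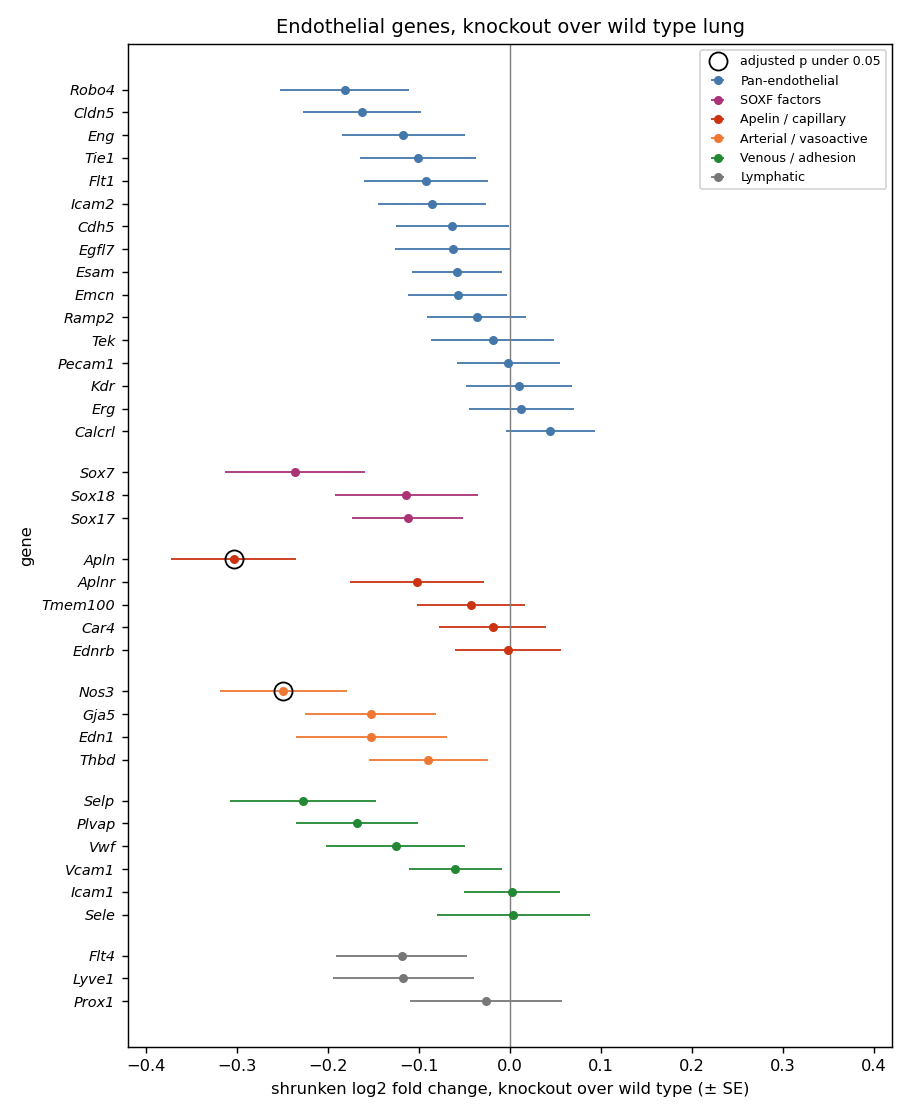
Shrunken log2 change of each of the 37 endothelial genes, knockout over wild type, from the authors' deposited table, by group of genes; points are the estimates, bars 1 standard error, and black circles mark an adjusted p under 0.05. Apln at -0.30 and Nos3 at -0.25 are circled, and Calcrl at 0.04 lies farthest to the right.

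**Figure D2:**
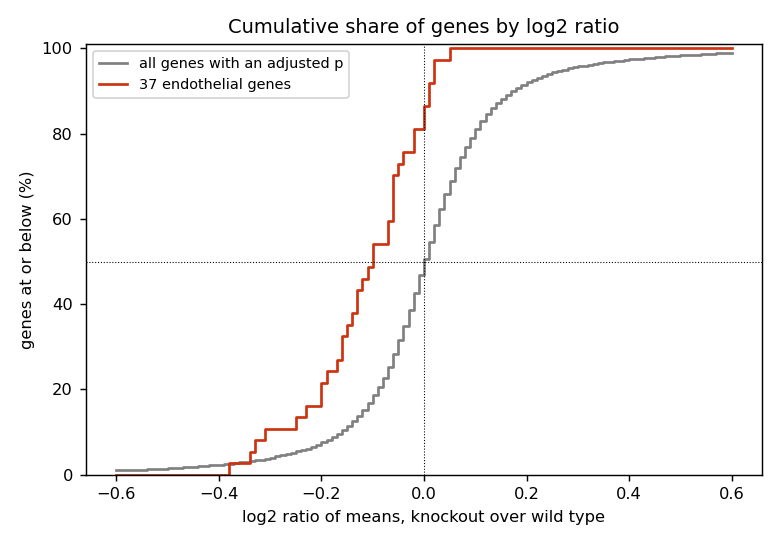
Cumulative percentage of genes at or below each log2 ratio of means, knockout over wild type, for the 37 endothelial genes (red) and all 16902 clusters with an adjusted p (grey). The red curve reaches 50% near its median of -0.11 and the grey curve near 0.

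Apln encodes apelin, a secreted peptide that acts on the receptor Aplnr to promote vessel growth and relaxation. Its gene (kgCluster31358) lies on the minus strand of chromosome X between bases 48025146 and 48034853 of mm10. Its mean in the authors' deposited table was 3622 normalized counts in wild type and 2776 in knockout. The shrunken log2 change was -0.30 ± 0.069 (SE), with a 95% interval of -0.44 to -0.17 and an adjusted p of 0.00231. It was the lowest ratio of all 37 members. Per kb of exon, apelin stood at 1150 normalized counts in wild type and 881 in knockout, and its receptor at 1313 and 1194. The length is that of all annotated exons of a gene together. Levels across genes can thus be set beside each other only roughly, and genes with many exon variants come out too low.

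Aplnr had means of 4856 and 4416 normalized counts in the authors' deposited table, with a shrunken log2 change of -0.10 ± 0.073 (SE) and an adjusted p of 0.844. Its 95% interval, -0.25 to 0.04, overlapped that of Apln, and whether ligand and receptor differed in response was not tested. The aerocyte genes Ednrb and Car4 differed by under 2% between genotypes in the same table, while Fibin, a gene of aerocytes outside the 37, fell 1.27-fold (described with the other capillary genes). Ednrb had 6854 and 6841 normalized counts (95% interval of the shrunken log2 change -0.12 to 0.11), and Car4 6119 and 6023 (-0.14 to 0.10). Tmem100, a target of BMP signalling in endothelium, had 15942 and 15394 (adjusted p = 0.984). Of the 5 genes of this group 1 was called, and the ratio of their summed means, knockout over wild type, was 0.948.

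Promoter sequence was at hand for 21 of the 37 genes, in RefSeq's GRCm38.p6 annotation. The 250 bases before the RefSeq start are shown for 4 of the 8 genes with an unadjusted p under 0.05. They display letters that endothelial transcription factors are known to read. Nos3, Sox7 and Plvap had no entry, and of the 4 genes shown only Apln was called. Robo4, which also has an entry, is not shown because the window overlaps an exon. Capitals mark AGGAAG, a core read by ETS factors such as Erg, and ACAAT, a core read by SOX factors, on either strand; each line runs 5′ to 3′ on the strand of the gene.
Apln (chrX:48034854-48035103, minus strand): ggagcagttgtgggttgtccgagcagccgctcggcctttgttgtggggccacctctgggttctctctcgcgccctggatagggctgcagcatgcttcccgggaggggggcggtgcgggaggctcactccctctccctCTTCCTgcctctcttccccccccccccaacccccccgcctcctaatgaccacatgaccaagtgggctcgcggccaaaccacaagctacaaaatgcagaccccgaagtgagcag
Selp (chr1:164115014-164115263, plus strand): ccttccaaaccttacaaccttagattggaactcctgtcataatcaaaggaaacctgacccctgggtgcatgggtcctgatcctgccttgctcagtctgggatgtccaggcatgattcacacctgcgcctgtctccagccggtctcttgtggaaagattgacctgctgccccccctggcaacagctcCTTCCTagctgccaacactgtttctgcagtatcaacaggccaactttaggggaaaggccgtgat
Gja5 (chr3:97032152-97032401, plus strand): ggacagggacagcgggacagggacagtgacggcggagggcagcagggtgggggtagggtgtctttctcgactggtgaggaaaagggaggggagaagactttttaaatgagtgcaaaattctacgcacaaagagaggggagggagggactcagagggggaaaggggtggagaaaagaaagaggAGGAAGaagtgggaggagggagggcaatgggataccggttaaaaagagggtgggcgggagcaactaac
Cldn5 (chr16:18776597-18776846, plus strand): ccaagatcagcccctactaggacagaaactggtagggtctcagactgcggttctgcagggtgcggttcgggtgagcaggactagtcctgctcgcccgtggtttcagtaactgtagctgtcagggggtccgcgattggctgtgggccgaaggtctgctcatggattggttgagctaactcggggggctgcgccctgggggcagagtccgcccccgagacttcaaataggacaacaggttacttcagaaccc

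The Apln window held 1 ETS core, on the strand opposite to the gene from -113 to -108 counted from the first transcribed base, and no SOX core. Selp and Gja5 each held 1 ETS core, at -64 to -59 and -68 to -63, and the Cldn5 window held neither set of letters. Counted from the RefSeq start, the Robo4 window held an ETS core at -49 to -44 and 2 SOX cores at -225 to -221 and -214 to -210. The GENCODE gene of Robo4 starts earlier, at base 37401897 of chromosome 9, so this ETS core lies inside the gene as annotated there. The Gja5 window also lies inside its GENCODE gene, which starts at base 96904693 of chromosome 3, but in no exon of it. For Gja5 the window is thus upstream of the RefSeq start only. Over the 26 promoter entries of the 21 genes, 13 (50%) held AGGAAG, beside 29.5% of all 32851 promoters of that length. ACAAT was in 6 (23.1%), beside 27.7% of all promoters. CACCC, a core read by Kruppel-like factors, was in 18 (69.2%), beside 52.0%, and ACGTG, the core of hypoxia response elements and part of E-boxes, was in 0, beside 16.6%. All 4 were searched on both strands. These matches are letters in a window and not measured binding.

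Among arterial and vasoactive genes, Nos3 fell and the other 3 did not pass the test. Nos3 encodes endothelial nitric oxide synthase, whose product relaxes vessel smooth muscle. The gene (kgCluster21216) lies on the plus strand of chromosome 5 from 24364810 to 24384474. Its means in the authors' deposited table were 1301 and 1043 normalized counts in wild type and knockout, with a shrunken log2 change of -0.25 ± 0.070 (SE), a 95% interval of -0.39 to -0.11 and an adjusted p of 0.0378. Per kb of exon it was among the lowest members, at 315 and 252 normalized counts. Nos3 shares exonic bases with genes on the opposite strand, 1040 with Gm15587 (25.2% of its exonic length) and 294 with Atg9b, and without strand in the libraries their reads cannot be told apart. Atg9b itself had means of 68.8 and 66.4 in the same table.

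Edn1, encoding endothelin-1, had means of 2250 and 1883 normalized counts in the authors' deposited table and a shrunken log2 change of -0.15 ± 0.083 (SE; adjusted p = 0.653). Its estimate was shrunk further than those of the 8 members with an unadjusted p under 0.05, to 0.595 of its log2 ratio of -0.26, beside 0.792 for Apln and 0.782 for Nos3. Gja5, the gap junction protein connexin 40 of arterial endothelium, had 2566 and 2233 normalized counts (shrunken log2 change -0.15 ± 0.072, unadjusted p = 0.0324, adjusted p = 0.505 in the authors' deposited table). Thbd, or thrombomodulin, which turns thrombin towards anticoagulation, had 31380 and 29077 (adjusted p = 0.850). All 4 genes of the group thus had the lower mean in knockout, with a median log2 ratio of -0.23.

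The SOXF transcription factors direct arterial, venous and lymphatic fate and act redundantly. All 3 had a lower knockout mean and none was called. Sox7 had the third lowest ratio of the 37 genes, with 4241 normalized counts in wild type and 3360 in knockout, a shrunken log2 change of -0.24 ± 0.077 (SE), an unadjusted p of 0.00222 and an adjusted p of 0.117 in the authors' deposited table. Sox18 had 4639 and 4132 normalized counts there (95% interval of the shrunken log2 change -0.27 to 0.04), and Sox17 had 2676 and 2440 (-0.23 to 0.01). Their summed means stood at 0.86 of wild type in the knockout.

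None of the 16 pan-endothelial genes was called. Some of the genes used to mark endothelial cells, Pecam1, Erg, Kdr and Tek, had nearly equal means in the authors' deposited table. Over the group 13 of 16 had the lower mean in knockout, among them the markers Cldn5, Eng, Tie1 and Flt1 given below. Pecam1, the adhesion molecule CD31, had means of 30370 and 30323 normalized counts (shrunken log2 change -0.00198 ± 0.056, 95% interval -0.11 to 0.11). The ETS factor Erg had 4605 and 4651 (-0.10 to 0.13), the VEGF receptor Kdr 21783 and 21956 (-0.10 to 0.12), and the angiopoietin receptor Tek 20201 and 19865 (-0.15 to 0.11). Cdh5, the VE-cadherin of endothelial junctions, had 35257 and 33459 (-0.18 to 0.06). Each of these 5 intervals includes the members' median shrunken log2 change of -0.09, while the Calcrl interval, -0.05 to 0.14, does not.

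Calcrl had the highest ratio of all members. It encodes the receptor that becomes an adrenomedullin receptor when paired with Ramp2, and it had means of 41603 and 43034 normalized counts in the authors' deposited table (with a shrunken log2 change 0.04 ± 0.049, adjusted p = 0.963). Its partner Ramp2 had 9190 and 8927 (adjusted p = 0.989), and shares 1103 exonic bases (33.4% of its length) with Vps25 on the same strand. The lowest ratios of the group were in Robo4, a receptor that stabilises vessels, with 3541 and 3009 normalized counts (shrunken log2 change -0.18 ± 0.071, unadjusted p = 0.00999, adjusted p = 0.288 in the same table), and in Cldn5, the claudin of endothelial tight junctions, with 14192 and 12369 (-0.16 ± 0.065, unadjusted p = 0.0117, adjusted p = 0.314). Per kb of all annotated exons, Cldn5 was the most abundant of the 37 genes, at 10023 normalized counts in wild type and 8735 in knockout. Its exons span only 1416 bases, and the order depends on the gene models used.

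Between these ends the remaining pan-endothelial genes had knockout means slightly under wild type, by ratios of wild type over knockout from 1.05 to 1.11. The co-receptor of TGF-beta signalling Eng had 24339 and 21981 normalized counts in the authors' deposited table (adjusted p = 0.700), the orphan receptor Tie1 14488 and 13308 (0.759), and the VEGF receptor and decoy Flt1 13108 and 12090 (0.853). The adhesion molecules Icam2 and Esam had 6567 and 6126, and 8983 and 8591. The secreted factor Egfl7, whose gene hosts Mir126a, had 13384 and 12700, and the sialomucin Emcn 3042 and 2907. Over the group the median log2 ratio was -0.07, 13 of 16 lay below 0, and the summed means stood at 0.965 of wild type.

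**Figure D3:**
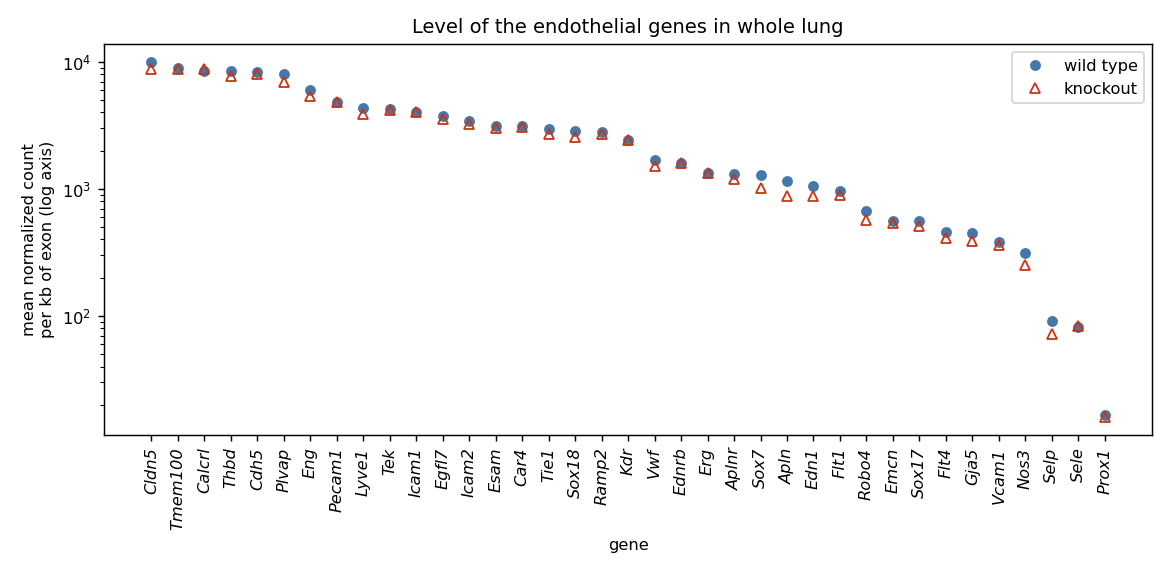
Authors' mean normalized count per kb of exon (log axis) of the 37 endothelial genes in wild type (blue circles) and knockout (red triangles), ordered by the wild type level. Cldn5 leads at 10023 in wild type and Prox1 is lowest at 16.7; the gap between circle and triangle is widest for Apln, Selp, Sox7 and Nos3.

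Venous and adhesion genes were not called either. Of the 6 genes 4 had the lower knockout mean, and Icam1 and Sele lay 0.15% and 0.61% above wild type. The median log2 ratio of the group was -0.12, and the summed means stood at 0.915 of wild type. Plvap, which forms the diaphragms of fenestrae and caveolae, had means of 16049 and 13882 normalized counts in the authors' deposited table (with a shrunken log2 change -0.17 ± 0.067, unadjusted p = 0.0122, adjusted p = 0.323). Vwf, the platelet-tethering von Willebrand factor, had 27382 and 24244 (adjusted p = 0.739). The inducible adhesion molecules that bind leukocyte integrins were closer to level, with 17569 and 17596 for Icam1 (95% interval of the shrunken log2 change -0.10 to 0.11) and 3384 and 3230 for Vcam1 (-0.16 to 0.04).

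The selectins Selp and Sele, which let leukocytes roll on activated endothelium, were among the least abundant members. Selp had 402 normalized counts in wild type and 317 in knockout, the second lowest ratio of the 37 genes (shrunken log2 change -0.23 ± 0.080, unadjusted p = 0.00461, adjusted p = 0.187 in the authors' deposited table). Sele, its neighbour on chromosome 1, had 239 and 241 (shrunken log2 change 0.00343 ± 0.084, adjusted p = 0.999). Both lie 13.9 to 14.0 Mb from lincRNA-Cox2. Of the 231 other tested genes placed within 20 Mb of it, 20 were called (8.66%), beside 0.971% of 14728 genes placed elsewhere, and the part of this neighbourhood in the Selp value was not tested. Platelets also carry Selp and Vwf. The 11 platelet genes split into 5 lower and 6 higher, with a median log2 ratio of 0.05 and 0 called. Their log2 ratios ran from -0.40 to 0.28, and the part of platelets in the Selp and Vwf values was not tested.

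The 3 genes grouped as lymphatic had lower knockout means and none was called. Flt4, the receptor for VEGF-C and VEGF-D, had 3769 and 3382 normalized counts in the authors' deposited table (with a shrunken log2 change -0.12 ± 0.072, adjusted p = 0.737). Lyve1, the hyaluronan receptor, had 12741 and 11347 (adjusted p = 0.796). Prox1, the transcription factor that defines lymphatic endothelium, had 140 and 134 (-0.03 ± 0.084, adjusted p = 0.997), and at 16.7 normalized counts per kb in wild type was the least abundant member. Lyve1 and Flt4 had far higher means than Prox1, and other cell types are known to express Lyve1. Which cells the Lyve1 and Flt4 values came from was not tested, so they are not a measure of lymphatic cells alone. No gene of the group had an unadjusted p under 0.05.

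Other genes of endothelium and its pathways were examined in 4 lists that do not hold the 37 members. Of 90 distinct genes 88 had an adjusted p, 67 (76.1%) with the lower and 21 with the higher mean in knockout. Of the 88, 4 (4.55%) were called, all lower. Of all tested clusters 50.6% had the lower mean in knockout, 0.497% were called lower and 1.09% were called in either direction. Hes1, Smad7 and Foxf1 belong to the 36 endothelial regulators. Hes1, a Notch target that represses transcription, fell 1.39-fold in the authors' deposited table, from 4073 to 2933 normalized counts (shrunken log2 change -0.37 ± 0.071 SE, adjusted p = 0.000104). Smad7, an inhibitor of TGF-beta and BMP signalling, fell 1.33-fold, from 4588 to 3445 (-0.30 ± 0.076, adjusted p = 0.0158). Foxf1, a forkhead factor required for lung vessel formation, fell 1.23-fold, from 10216 to 8307 (-0.24 ± 0.067, adjusted p = 0.0374). Fibin, a secreted protein gene expressed in aerocytes, fell 1.27-fold, from 3187 to 2512 (-0.26 ± 0.072, adjusted p = 0.0293 in the same table).

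Of the 36 regulators, 33 (91.7%) had the lower mean in knockout, with a median log2 ratio of -0.13, and 3 were called (8.33%). The shares over all tested clusters were 50.6% and 1.09%. Of the 18 other lung capillary genes 12 were lower and 1 was called (median -0.03), and of 16 tested genes of the other arterial, venous and lymphatic list 12 were lower and 0 were called (median -0.12). The 19 tested ligands and partners split into 11 lower and 8 higher with a median of -0.03, and 0 were called. Vegfa, Apela, Klf2 and Klf4 were singled out after their values were seen. Vegfa, the main growth factor of endothelium, had 27310 and 25952 normalized counts in the authors' deposited table (adjusted p = 0.890), and Apela, the second ligand of the apelin receptor, had means of 1.02 and 1.33 with no adjusted p. The shear-responsive factors Klf2 and Klf4, regulators of Nos3 and Thbd, had 7837 and 6614 (adjusted p = 0.560) and 9012 and 7174 (adjusted p = 0.0766).

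Of the lists of other cells, neutrophil, immediate-early and smooth muscle genes held called members, and the alveolar, red cell and platelet lists held none. Of all tested clusters 1.09% were called and 50.6% had the lower knockout mean. Smooth muscle and pericyte genes had the lower knockout mean at 13 of 14 (92.9%), with 1 called (7.14%). Their median log2 ratio was -0.20, beside -0.11 for the 37 endothelial genes, and their summed means were 44226 and 38403 normalized counts in the authors' deposited table. Immediate-early genes, which respond within minutes to stimulation or handling, were lower at 17 of 18, with 4 called, a median log2 ratio of -0.82 and summed means of 204940 and 113213. Their shrunken log2 changes were smaller than their log2 ratios, with a median of -0.19 beside -0.09 for the 37 endothelial genes; Atf3 had a log2 ratio of -2.19 and a shrunken change of -0.17, and Nr4a1 -1.73 and -0.28, in the authors' deposited table. Of the 8 tested neutrophil genes 7 were higher and 6 were called, with summed means of 10192 and 13595, and the 6 tested red cell genes were all higher with 0 called. Alveolar type 2 genes were higher at 9 of 10 with summed means of 454346 and 468277 and 0 called, and alveolar type 1 genes summed to 264646 and 264371. No gene of these lists with a p-value was at 0 in either genotype. The summed means of the 37 endothelial genes were 432770 and 409286, and the part of the other cells and of the immediate-early response in the endothelial values was not tested.

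**Figure D4:**
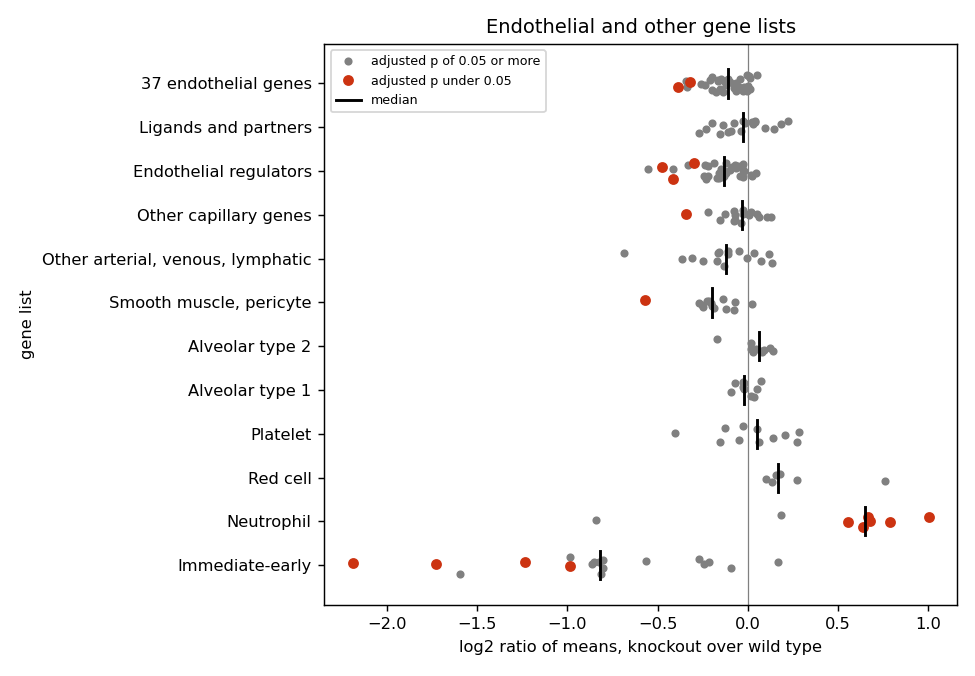
Log2 ratio of the authors' means, knockout over wild type, for each gene with an adjusted p in the endothelial list, the lists of related genes and the lists of other cells; red points have an adjusted p under 0.05 and black bars are medians. The medians are -0.11 for the 37 endothelial genes, -0.13 for endothelial regulators and -0.20 for smooth muscle and pericyte genes. They are -0.82 for immediate-early genes and 0.65 for neutrophil genes. Vertical scatter within a list has no meaning.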

How the data were processed

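Total RNA of whole lung from 3 knockout and 3 wild type mice was sequenced as 50 bp paired ends from TruSeq v2 libraries, per the labels' protocols. Tools in the submitters' processing notes are STAR 2.5.1b, Bowtie2, bedtools and SAMtools, with DESeq2 and the build mm10; how reads were counted, and with which strand setting, is not given in the sources used here. The deposited table gives, per the file headers, mean normalized counts by genotype (a signal: counts divided by size factors, by the authors), a shrunken log2 fold change with its standard error, the Wald statistic (a score), p-value and adjusted p-value as deposited.

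No model was fitted, since single libraries are not in the table. A gene was called at the authors' adjusted p under 0.05. Ratios are knockout over wild type means; 95% intervals are the shrunken estimate ± 1.96 SE. Of 20494 clusters, 17 had no p-value and 3575 more no adjusted p. Positions and exonic lengths are from GENCODE M21 (mm10), whose gene models may differ from the authors' clusters. Of 176 entries in the lists of other genes, 170 were found, older symbols through RefSeq synonyms, and 166 had an adjusted p. The adjustment recomputed for the alternative settings was tested on simulated data (Python 3.11.15, pandas 2.3.3). The adjusted p-values behind the main calls are the authors' and were not part of that test. P-values rest on 3 mice a genotype, taken as separate mice from the labels.

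The members and lists were chosen with earlier results of these data known. Named are called members, members with an unadjusted p under 0.05, the extremes of each group, and called genes of the other lists; further members are given by their means. Alternatives were the adjustment, threshold, a mean of at least 50, scaling, and members left out; the one without chromosome 1 and those for Nos3 were added after seeing the data.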

Additional observations from a re-analysis of the deposited data

How the results depend on the processing

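Of 31 alternative settings run over these results, 28 kept the call and direction and stayed within the spread or within 1.5 times the count. Some of the 28 could not come out otherwise, so this count overstates how much was tried. A mean of at least 50 left out no member, and each symbol had a single row. A threshold of 0.1 cannot remove a call made at 0.05. Apln and Nos3 were the called members under each adjustment and threshold tried, with adjusted p-values from 0.00214 to 0.0028 for Apln and from 0.0358 to 0.0458 for Nos3. A threshold of 0.1 on the adjusted p raised the calls over all clusters from 184 to 300 and left the members at 2. With the shrunken estimate in place of the ratio of means, the log2 change of Apln was -0.30 instead of -0.38. Without the 12 members that other cell types are known to express, 21 of 25 had the lower mean in knockout (median -0.12). Without the 4 members on chromosome 1 it was 29 of 33, and with equal summed means 30 of 37. Over all alternatives the median log2 ratio of the members lay between -0.12 and -0.09. No paired analysis was possible because the labels pair no mice and the table holds group means only. For the same reason no mouse could be left out, and reads of single libraries could not be derived for the members, whose lowest mean is 137. The depth of single libraries is unknown.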
